A study of Mus musculus with 5 samples.

Results

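Translation initiation factors (eIFs) and elongation factors (eEFs) are the proteins that bring the ribosome to an mRNA, find the start codon and carry the growing chain forward. Their genes were described here as 46 lines of a gene table made from RNA polymerase II ChIP-Seq of Th2 cells. Lines were selected on the gene name, which starts with Eif or Eef and a digit, without the Eif2ak kinases, and chosen by a measured value, an enriched interval in at least 1 of the Parp14+/+ libraries. Of 51 lines with such a name, 5 have no interval in a Parp14+/+ library, and 4 of these carry the description of another gene, so they were left out. Some of the 46 names, such as Eif2c, Eif4ebp, Eif4enif1 and Eef1e1, are no initiation or elongation factors. They are counted among the 46 factors below, and 39 lines remain without them. The table holds 11608 lines, and 7971 meet the same interval rule, among them 76 genes of cytosolic ribosomal proteins (Rpl and Rps), the structural partners of the factors. Because intervals in the Parp14+/+ libraries chose the lines, counts of ratios that contain those libraries are descriptions.

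The antibody was against RNA polymerase II phosphorylated at serine 2 of its tail repeat, the form found on genes during elongation. Naive CD4+ T cells from spleens of C57BL/6 Parp14+/+ and Parp14-/- mice were activated through CD3 and CD28 with IL-4 at 10 ng/ml and antibody to IFN-gamma for 3 days and expanded for 4 days. PARP-14 belongs to the enzymes that attach ADP-ribose to proteins and acts as a coactivator of STAT6. The deletion is carried by every cell of the Parp14-/- mouse. PJ34 inhibits ADP-ribosyltransferases of several members of this family and not of PARP-14 alone. The labels give a dose of 10 µM on differentiated cells, while the methods of the study give a lower dose during culture. Each genotype was taken untreated and with PJ34, and each of these 4 conditions has 1 library, so nothing below has a replicate check, and no test between conditions was run. How many mice went into a library is not given in the sources used here. The study's methods give young adult mice, in 1 range of age for both genotypes.

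The value of a gene is its average peak height, the number of overlapping fragments at the highest point of each enriched region on the gene, averaged over the regions. Regions were merged over all libraries of the table and can run into a neighbouring gene. Of the 46 genes, 27 have a single region, 31 share a region with another gene, and 15 have exactly the values of a neighbouring line. Ratios are given with an exact Clopper-Pearson 95% interval of the summed heights, which covers counting error only. The libraries had been reduced to equal numbers of alignments, but the 4 libraries still held between 8841 and 12014 intervals covering 65.5 to 98.1 Mb, fewest and least in Parp14-/- + PJ34 and most length in Parp14+/+. Over all lines with the interval the median ratio was 1.04 for Parp14+/+ over Parp14-/-, 1.16 for the same pair with PJ34, 0.960 for Parp14+/+ over Parp14+/+ + PJ34 and 1.08 for Parp14-/- over Parp14-/- + PJ34, so changes of the factors are read against these shifts. The targeted gene, Parp14, was covered by intervals over 22.9 kb and 20.8 kb in the Parp14+/+ libraries and over 2.69 kb and 3.29 kb in the Parp14-/- libraries. Its average peak heights were 8 and 11 in the former and 6.67 in both of the latter, so the labels show in the covered length more than in the height. All 10 Th2 and CD4 markers had an interval, at summed heights of 260.5, 244, 173 and 143.5 in the order Parp14+/+, Parp14+/+ + PJ34, Parp14-/-, Parp14-/- + PJ34. Among markers of other cells, 1 of 4 B cell genes (Cd79a, at heights of 38, 36, 34 and 28), 1 of 2 listed myeloid genes (Csf1r) and both Th1 genes had an interval, and Cd8a had none. The part of this in the results was not tested. Fewer cells with an active gene and less polymerase per cell cannot be told apart in these bulk samples.

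The factor genes were among the more heavily occupied genes, with Eef2, Eef1a1 and the eIF4A helicases on top. The median over the 46 genes of the mean height of the 4 libraries was 13.6, against 25.8 for the ribosomal protein genes and 9.5 for all lines with the interval. A mean height of at least 20 was reached by 14 of the 46 (30.4%), by 57 of 76 ribosomal protein genes (75%) and by 14.7% of all lines. Eef2, which moves the ribosome by a codon after each peptide bond, lies at chr10:80639405-80645241 on the plus strand (mm9) and had heights of 97 in Parp14+/+, 81 in Parp14+/+ + PJ34, 74 in untreated Parp14-/- and 80 in Parp14-/- + PJ34. Eef1a1, at chr9:78326260-78329531 on the minus strand, encodes the factor that delivers aminoacyl-tRNA and had heights of 82, 84, 62 and 63 in the same order. Both Parp14+/+ libraries lay above both Parp14-/- libraries, but the region also lies on Mto1. The highest point of Parp14+/+ + PJ34 lay over Mto1, 4946 bases past the end of Eef1a1, and that of Parp14-/- + PJ34 lay over Eef1a1. Eif4a1, the mRNA-unwinding helicase of the cap-binding complex, at chr11:69480441-69485817 on the minus strand, had heights of 80, 52, 64 and 58. Its paralog Eif4a2, at chr16:23107829-23114019 on the plus strand, had heights of 51, 40, 46 and 53. The highest point of its region lay over Rfc4 in all libraries but Parp14-/- + PJ34. At the other end, Eif2c4 had heights of 3, 9, 1 and 2 and Eif4ebp1 of 4, 8, 6 and 6. These and Eif2b1, Eif3s12 and Eif4ebp2 are the 5 genes just inside the rule, with an interval in a single Parp14+/+ library.

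**Figure D1:**
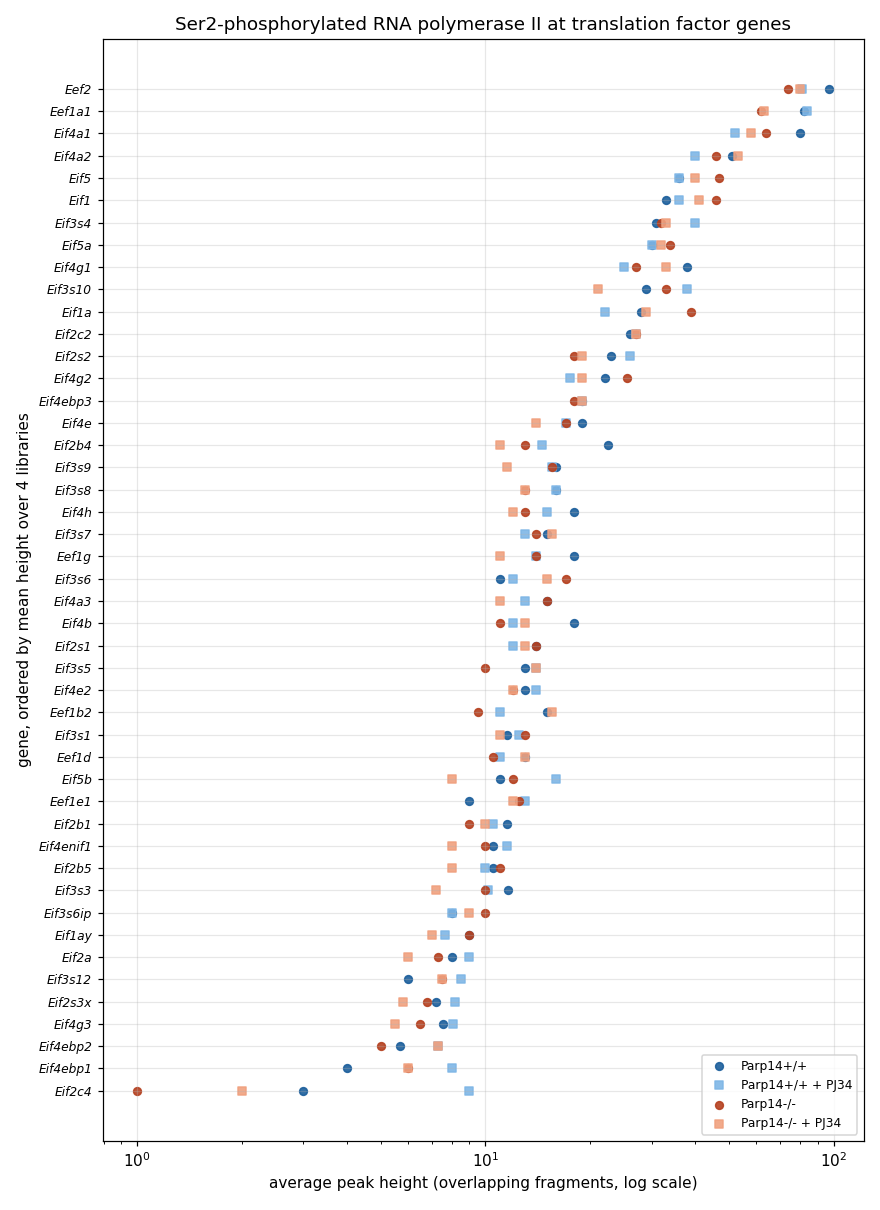
Average peak height of the 46 factor genes (rows, ordered by mean height) on a log axis, with 1 point per library and coinciding points drawn over each other. Heights run from 97 for Eef2 in Parp14+/+ to 1 for Eif2c4 in Parp14-/-, and for most genes the 4 libraries lie close together relative to the range between genes.

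The promoters of the factors were searched for the hexamer CACGTG. This palindrome is the E-box that proteins of the MYC and USF families recognise. RefSeq promoter windows (GRCm38.p6, 250 bases before to 50 after the start) were matched for 37 of the 46 genes. The letters CACGTG, the same on both strands, were found in 9 of 37 (24.3%), against 10.9% of ribosomal protein genes, 12.1% of lines with the interval and 8.09% of all genes with a window, a difference that was not tested. The 9 genes are Eef2, Eif4a1, Eif5a, Eif4g1, Eif3s10, Eif4e, Eif4h, Eif3s5 (now Eif3f) and Eif3s12 (now Eif3k). Their median mean height was 30.2 against 12.8 for the 28 genes without it, with ranges of 7.38 to 83 and 3.75 to 72.8 that overlap. A pyrimidine run at the start site, the feature by which ribosomal protein mRNAs are known, was taken as a C within 5 bases of the start that begins 5 letters of C or T on the strand of the gene and follows A or G or is the start itself. It was found in 7 of 37 factor genes (18.9%), in 41.8% of ribosomal protein genes and in 18.2% of lines with the interval. Most ribosomal protein genes had no match, so a gene without a match can still carry the feature. A match is a description of the letters and not of binding. The 250 bases before the start are shown for the translocase, the helicase, the scaffold and the cap-binding protein. These 4 genes were picked from those with the hexamer before the start and do not stand for the other factors. Of the 5 genes with the highest mean height, Eef1a1, Eif4a2 and Eif5 have no CACGTG in their window. Sequences are written 5′ to 3′ on the strand of the gene with the hexamer in capitals. They lie at chr10:81176381-81176630 (plus strand, Eef2), chr11:69672424-69672673 (minus strand, Eif4a1), chr16:20672477-20672726 (plus strand, Eif4g1) and chr3:138527018-138527267 (plus strand, Eif4e), all in GRCm38.p6.
Eef2: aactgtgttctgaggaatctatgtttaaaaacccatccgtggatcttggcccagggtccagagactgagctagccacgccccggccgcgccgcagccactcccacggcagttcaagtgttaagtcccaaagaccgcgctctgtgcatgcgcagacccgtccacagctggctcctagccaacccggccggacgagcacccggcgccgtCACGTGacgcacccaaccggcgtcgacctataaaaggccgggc
Eif4a1: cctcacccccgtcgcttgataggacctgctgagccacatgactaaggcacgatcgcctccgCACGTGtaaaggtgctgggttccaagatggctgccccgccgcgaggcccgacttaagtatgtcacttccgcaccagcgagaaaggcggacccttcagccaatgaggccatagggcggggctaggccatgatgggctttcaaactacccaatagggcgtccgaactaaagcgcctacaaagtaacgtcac
Eif4g1: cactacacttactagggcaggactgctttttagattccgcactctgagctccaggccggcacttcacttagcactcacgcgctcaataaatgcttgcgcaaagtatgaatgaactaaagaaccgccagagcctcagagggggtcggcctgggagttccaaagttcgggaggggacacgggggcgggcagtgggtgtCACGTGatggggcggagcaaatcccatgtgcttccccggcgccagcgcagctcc
Eif4e: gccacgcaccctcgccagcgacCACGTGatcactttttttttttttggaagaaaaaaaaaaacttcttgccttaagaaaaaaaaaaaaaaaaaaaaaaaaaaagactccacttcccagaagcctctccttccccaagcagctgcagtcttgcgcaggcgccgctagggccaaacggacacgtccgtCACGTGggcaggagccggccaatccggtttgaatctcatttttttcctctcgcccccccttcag
The hexamer of Eef2 lies 43 bases before the start and that of Eif4g1 54 bases before it, with a second copy after the start that is not shown. In Eif4a1 it lies 189 bases before the start, and Eif4e has 2 copies, 228 and 64 bases before the start.

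The genotype comparison asks which of the factors carried more or less polymerase without PARP-14. Most of them lay between ratios of 0.7 and 1.4, as did most of all lines. In untreated cells the median ratio of Parp14+/+ over Parp14-/- was 1.07 over the 46 genes, against 1.18 over the ribosomal protein genes and 1.04 over all lines. A ratio above 1.4 was found for 5 of 46 genes (13.2% of all lines) and one below 0.7 for 2 (9.05% of all lines). Of the ribosomal protein genes, 17 of 76 were above 1.4 and 1 below 0.7. Of these 76 genes, 47 have exactly the values of a neighbouring line, as do 2180 of the 7971 lines with the interval. The shares of the factors, 10.9% above 1.4 and 4.35% below 0.7, were near those of all lines for counts this small. That of the ribosomal protein genes above 1.4, 22.4%, was over the background. Scaled to a median ratio of 1, the untreated pair had 4 factors above 1.4 and 5 below 0.7. Without names that are no translation factor, 4 of 39 were above 1.4 and 1 below 0.7. The shares of all lines were not computed for the scaled libraries or for this smaller set. With PJ34 on both genotypes, the median ratio was 1.11 for the factors, 0.938 for the ribosomal protein genes and 1.16 for all lines. Here 8 of 46 factors were above 1.4 (23.5% of all lines) and none was below 0.7 (4.56% of all lines), and 4 ribosomal protein genes were above and 5 below. After scaling the libraries to a median ratio of 1, the factors' median in this pair was 0.959, on the other side of 1, with 3 factors above 1.4 and 5 below 0.7. Without names that are no translation factor, 6 of 39 were above 1.4 and none below 0.7 in the unscaled pair. Again no shares of all lines were computed for these counts. The counting interval excluded 1 for 1 factor in the untreated pair (1.05% of all lines above 1 and 1.95% below) and for 3 in the PJ34 pair (2.86% above 1 and 0.741% below), in each case with the Parp14+/+ library higher. With scaled libraries the lower bounds of the 3 genes of the PJ34 pair, Eif3s10, Eif5b and Eif4g3, were 0.891, 0.917 and 0.969, so that none of the 3 excluded 1, while that of Eif2b4 in the untreated pair was 1.01.

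**Figure D2:**
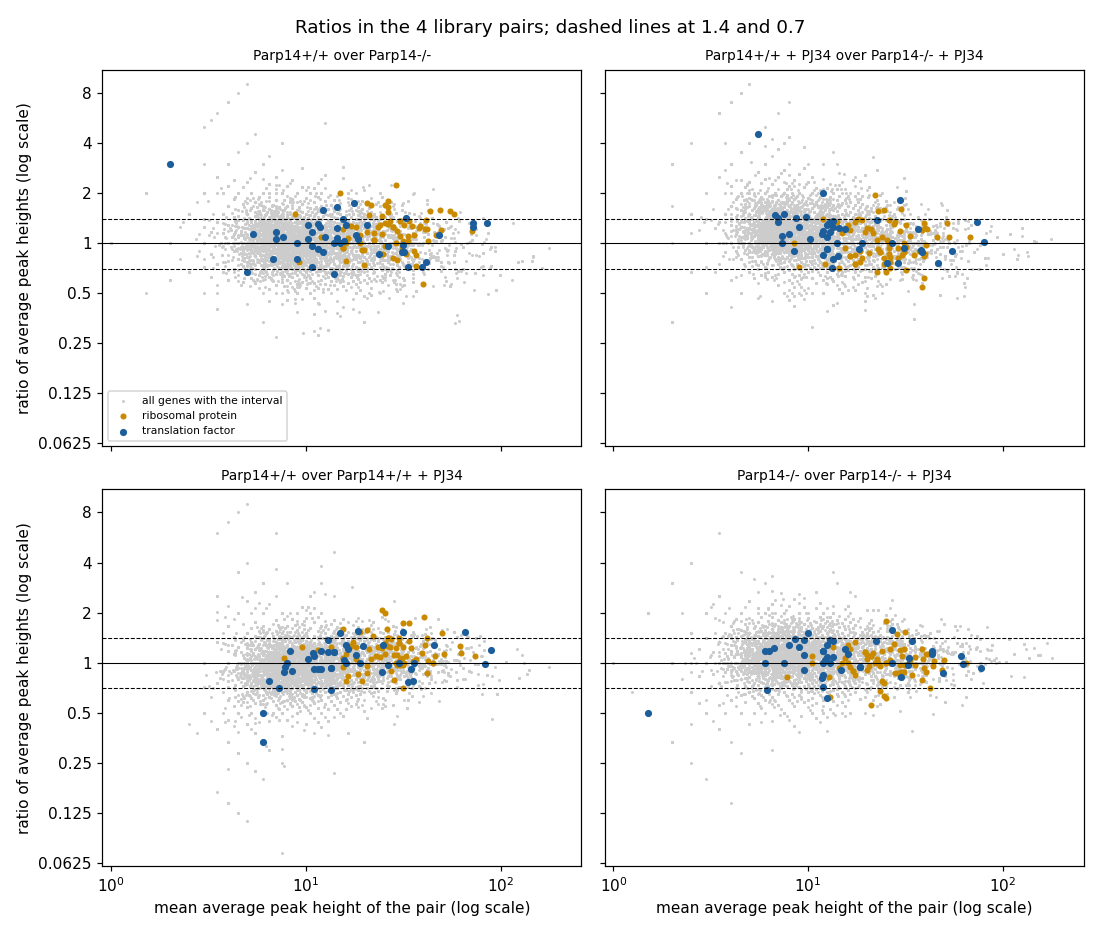
Ratio of average peak heights against the mean height of the pair, both on log axes, for the 4 library pairs, with all genes with the interval in grey, ribosomal protein genes in ochre and factor genes in blue. Dashed lines mark 1.4 and 0.7. The blue points lie mostly between them, as most grey points do, with 29 of the 46 genes past neither line in any pair. The share of all genes past neither line in any pair was not computed.

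The PJ34 comparison asks what an inhibitor of ADP-ribosylation did within 1 genotype. It shares libraries with the genotype comparison, so its values are given on their own. In Parp14+/+ cells the median ratio of untreated over treated was 1.00 for the factors, 1.14 for the ribosomal protein genes and 0.960 for all lines, with 4 of 46 factors above 1.4 (6.95% of all lines) and 4 below 0.7 (10.4% of all lines). Of the 4 below 0.7, Eif4ebp1, Eif2c4 and Eef1e1 are not initiation or elongation factors, and without such names 4 were above and 1 below. Without values shared with a neighbouring line 1 was above and 4 below, and with scaling 5 and 2. The shares of all lines were not computed under these alternatives. Eif4a1 was the single gene of the 46 whose interval excluded 1 (0.69% of all lines above 1 and 0.966% below). In Parp14-/- cells, a pair that the choice of genes did not use, the median was 1.08 for the factors, 1.00 for the ribosomal protein genes and 1.08 for all lines. There 2 of 46 factors were above 1.4 (14.3% of all lines) and 3 below 0.7 (5.66% of all lines), and the interval of none of the 46 excluded 1 (1.32% of all lines above 1 and 0.264% below). With scaling the counts were 1 and 4, and without names that are no translation factor 2 and 1. Neither has a share of all lines beside it. The separation of libraries by genotype or by PJ34 was also read over all 4. In 14 genes both Parp14+/+ values lay above both Parp14-/- values (28.1% of all lines), and in 6 genes both lay below (9.45% of all lines). In 6 genes both untreated values lay above both treated ones (11.9% of all lines) and in 3 both lay below (9.05% of all lines). These shares of the 46 were near the background. The 14 genes are Eef2, Eef1a1, Eif2s2, Eif2b4, Eif3s8, Eif4h, Eif4e2, Eif2b1, Eif4enif1, Eif3s3, Eif2a, Eif2s3x, Eif4g3 and Eif2c4, and the 6 with higher untreated values are Eif4a1, Eif4g2, Eif4a3, Eif2s1, Eif2b5 and Eif1ay.

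The cap-binding complex eIF4F joins the cap-binding protein eIF4E, the scaffold eIF4G and the helicase eIF4A, with eIF4B and eIF4H as helpers of the helicase. They were grouped by name with relatives that do not form this complex, Eif4a3, the helicase of the exon junction complex, Eif4e2, a cap-binding repressor, and Eif4g2, so the counts are of the 10 names and not of the complex. Of the 10 genes, 8 had a ratio above 1 in untreated Parp14+/+ over Parp14-/- (51.1% of all lines), with a median of 1.14, and 5 with PJ34 (66.2% of all lines), with a median of 1.04. The untreated ratios of Eif4a3, Eif4e2 and Eif4g2 were 1.00, 1.08 and 0.863. In Parp14+/+ over Parp14+/+ + PJ34, 8 of 10 were above 1 (38.9% of all lines), with a median of 1.23. Like Eif4e, Eif4h, Eif4a3 and Eif4e2, the 3 above 1.4, Eif4a1, Eif4g1 and Eif4b, have exactly the values of a neighbouring line. Eif4a1 was the clearest of them, with the untreated Parp14+/+ library at 80 above the 3 others at 52, 64 and 58. Its ratio to Parp14+/+ + PJ34 was 1.54 (1.07 to 2.23) and that to Parp14-/- was 1.25 (0.889 to 1.76). The region of Eif4a1 also lies on Cd68, Fxr2, Mpdu1, Senp3 and Sox15. Eif4g1, at chr16:20672822-20692956 on the plus strand, had heights of 38 in Parp14+/+, 25 in Parp14+/+ + PJ34, 27 in untreated Parp14-/- and 33 in Parp14-/- + PJ34. Its ratio of untreated genotypes was 1.41 (0.837 to 2.40) and that with PJ34 0.758 (0.432 to 1.31), both intervals including 1. Eif4b had heights of 18, 12, 11 and 13, with the untreated Parp14+/+ library on top and a ratio to Parp14-/- of 1.64 (0.732 to 3.83). The counts behind this gene are too low to separate the libraries.

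The other genes of this group were closer to level. Eif4e, at chr3:138189155-138220563 on the plus strand, had heights of 19, 17, 17 and 14 with no library apart from the rest, and its ratio of untreated genotypes was 1.12 (0.550 to 2.29). Its highest point lay past its end in all libraries but untreated Parp14+/+, by 18077 bases in Parp14+/+ + PJ34. Eif4a2 had ratios of 1.11 (0.730 to 1.69) in the untreated genotype pair and 0.755 (0.488 to 1.16) with PJ34. In the pair with PJ34 its highest point lay over Rfc4 in Parp14+/+ and over Eif4a2 in Parp14-/-. Eif4g2, an eIF4G relative without the eIF4E-binding site, had heights of 22, 17.5, 25.5 and 19, both untreated libraries above both treated ones. Eif4g3, a second scaffold on a gene of 213 kb with 18 regions, had low heights of 7.56, 8.06, 6.5 and 5.5 whose many regions gave the narrowest intervals. Its ratio with PJ34 was 1.47 (1.13 to 1.91) and without it 1.16 (0.901 to 1.5). With the libraries scaled to a median ratio of 1, the ratio with PJ34 was 1.26. The length of Eif4g3 under intervals was 78.3 kb in Parp14+/+, 49.5 kb in Parp14+/+ + PJ34, 33.3 kb in untreated Parp14-/- and 2.4 kb in Parp14-/- + PJ34. The remaining 3 genes of the group had low counts. Eif4h had heights of 18, 15, 13 and 12, Eif4a3 of 15, 13, 15 and 11, and Eif4e2 of 13, 14, 12 and 12, and every interval of these 3 genes includes 1.

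The genes of eIF4E-binding proteins, which hold eIF4E away from the scaffold, had few fragments. Eif4ebp2 had heights of 5.67, 7.33, 5 and 7.33, with both treated libraries above both untreated ones. Eif4ebp3 had 19, 19, 18 and 19, exactly the values of a neighbouring line, and its highest point lay near Sra1 in all libraries but Parp14+/+ + PJ34. Eif4enif1, which carries eIF4E into the nucleus, had 10.5, 11.5, 10 and 8 and a ratio with PJ34 of 1.44 (0.727 to 2.91). No active region lies on the span of Eif4ebp1.

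Of the genes for factors that set the start codon, Eif1, Eif1a and Eif5 had both Parp14-/- values above both Parp14+/+ values. Eif1 keeps the scanning ribosome from starting at a wrong codon, lies at chr11:100181308-100183410 on the plus strand and had heights of 33 in Parp14+/+, 36 in Parp14+/+ + PJ34, 46 in untreated Parp14-/- and 41 in Parp14-/- + PJ34. Its 2 Parp14-/- libraries were above its 2 Parp14+/+ libraries, with a ratio of 0.717 (0.444 to 1.15) untreated. Eif1a, for eIF1A, had heights of 28, 22, 39 and 29, again with both Parp14-/- libraries higher and a ratio of 0.718 (0.425 to 1.2). Eif1ay, an eIF1A gene on the X chromosome (now Eif1ax), did not share this order, with 9, 7.67, 9 and 7 and ratios of 1.00 (0.564 to 1.77) untreated and 1.10 (0.580 to 2.08) with PJ34. Its highest points lay before its start, nearest to Rps6ka3, in the 3 libraries with an interval on the gene. Eif5, which stimulates GTP hydrolysis by eIF2, had heights of 36, 36, 47 and 40, and a ratio of 0.766 (0.482 to 1.21). The other genes with this order were Eif5a, Eif3s6 and Eif3s6ip. The untreated intervals of all 6 genes include 1.

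eIF2 brings the initiator tRNA, and eIF2B exchanges its nucleotide. Eif2s1, the subunit whose phosphorylation lowers translation under stress, had heights of 14, 12, 14 and 13, with no library apart from the rest. Eif2s2 had heights of 23, 26, 18 and 19, both Parp14+/+ libraries above both Parp14-/- libraries, with ratios of 1.28 (0.660 to 2.51) and 1.37 (0.729 to 2.62). Eif2s3x, on the X chromosome, had 7.20, 8.20, 6.80 and 5.80, and its ratio with PJ34 was 1.41 (0.858 to 2.36). Eif2b4, for a regulatory subunit of eIF2B, had heights of 22.5, 14.5, 13 and 11, with the untreated Parp14+/+ library above the rest and a ratio to Parp14-/- of 1.73 (1.05 to 2.92). It was the single factor whose interval excluded 1 in the untreated genotype pair. Its highest point in Parp14+/+ and Parp14-/- lies 9271 and 9303 bases before its start, over no listed gene and nearest to Zfp513, and its regions also lie on Ppm1g, Snx17 and Zfp513. In the PJ34-treated libraries the intervals at its own start had heights of 10 and 9. Eif5b, the GTPase that joins the ribosomal subunits, had heights of 11, 16, 12 and 8, with Parp14+/+ + PJ34 highest and Parp14-/- + PJ34 lowest. Its ratio with PJ34 was 2.00 (1.07 to 3.90) and that without it 0.917 (0.490 to 1.71). Its regions also lie on EG666434, Rev1 and Txndc9. The highest point lies 198 bases before its start in Parp14+/+ and 934 bases before it, over EG666434 and Txndc9, in Parp14+/+ + PJ34. In the Parp14-/- libraries the highest point lies near its 3′ end, in Parp14-/- + PJ34 over Rev1 as well. Eif2b1 had 11.5, 10.5, 9 and 10, Eif2b5 had 10.5, 10, 11 and 8, and Eif2a, an alternative carrier of the initiator tRNA, had 8, 9, 7.33 and 6, with a ratio with PJ34 of 1.5 (0.796 to 2.89).

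eIF3 is the large scaffold that holds the small subunit, and 11 of its genes were among the 46. Its median ratio of untreated genotypes was 0.969, with 5 genes above 1 and 6 below, against 51.1% of all lines above 1. With PJ34 it was 1.14, with 7 above and 3 below, against 66.2% of all lines above 1, and 0.978 with scaled libraries. Eif3s10, for the largest subunit, eIF3a, at chr19:60837025-60866546 on the minus strand, had heights of 29 in Parp14+/+, 38 in Parp14+/+ + PJ34, 33 in untreated Parp14-/- and 21 in Parp14-/- + PJ34, the last of them the lowest. Its ratio with PJ34 was 1.81 (1.04 to 3.25), and 0.879 (0.515 to 1.49) without. Its highest point lay over Nanos1, past its end, in every library. Eif3s3, for eIF3h, had heights of 11.6, 10.2, 10.0 and 7.20 over 5 regions, in which both Parp14+/+ libraries were higher, and a ratio with PJ34 of 1.42 (0.907 to 2.23). Its covered length was 63.3 kb in Parp14+/+, 49.2 kb in Parp14+/+ + PJ34, 29.4 kb in untreated Parp14-/- and 20.4 kb in Parp14-/- + PJ34. Eif3s4, now Eif3g, had 31, 40, 32 and 33, with Parp14+/+ + PJ34 the highest, on exactly the values of a neighbouring line. Its ratio was 0.775 (0.469 to 1.27) for Parp14+/+ over Parp14+/+ + PJ34 and 1.21 (0.745 to 1.98) for the genotypes with PJ34. Its highest point lay past its end in every library, nearest to Ppan in all but untreated Parp14-/-. Eif3s6, now Eif3e, had 11, 12, 17 and 15, so both Parp14-/- libraries were higher, at an untreated ratio of 0.647 (0.274 to 1.46). The other 7 genes of this complex had heights between 6 and 16, and every interval of theirs includes 1.

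Among 6 elongation genes, 5 had a ratio above 1 in untreated Parp14+/+ over Parp14-/-, with a median of 1.30, while with PJ34 3 of 6 did, with a median of 0.975. Over all lines 51.1% and 66.2% were above 1 in these pairs. Eef2 and Eef1a1 had ratios of 1.31 (0.959 to 1.80) and 1.32 (0.939 to 1.87) untreated, and 1.01 (0.734 to 1.4) and 1.33 (0.95 to 1.88) with PJ34. In the pair with PJ34 the highest point of Eef1a1 lay over Mto1 in Parp14+/+ and over Eef1a1 in Parp14-/-. Eef1b2, the exchange factor of eEF1A, had 15, 11, 9.5 and 15.5, with the 2 outer libraries high, and ratios of 1.58 (0.860 to 2.97) and 0.710 (0.392 to 1.27). These are exactly the values of a neighbouring line, and the highest point lay nearest to Gpr1 in all libraries but Parp14+/+ + PJ34. Eif5a, the factor that keeps ribosomes moving through difficult stretches, had 30, 30, 34 and 32, with both Parp14-/- libraries slightly above both Parp14+/+ libraries. These are exactly the values of a neighbouring line. The highest point lay past the end of Eif5a in every library, over Gps2 in all but untreated Parp14-/-. Eef1g had 18, 14, 14 and 11 and Eef1d 13, 11, 10.5 and 13. The highest point of Eef1g lay over Ahnak in untreated Parp14-/-, and that of Eef1d lay over or nearest to Naprt1 in every library. Of the remaining names, Eef1e1, a protein of the tRNA synthetase complex, had 9, 13, 12.5 and 12, with untreated Parp14+/+ the lowest. Eif2c2 and Eif2c4 are older symbols of Argonaute genes and no translation factors. Eif2c2 had 26, 27, 27 and 27.

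**Figure D3:**
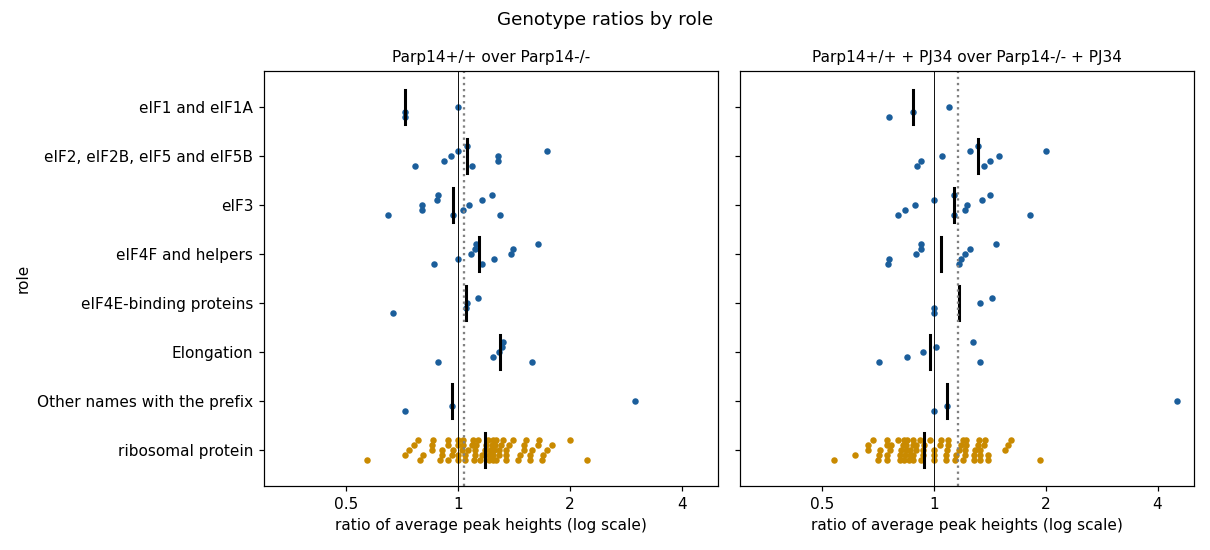
Genotype ratios of average peak height (log axis) for untreated and PJ34-treated pairs, by role, with 1 point per gene, a black bar at the median of the role and a dotted line at the median of all lines. The elongation genes have a median of 1.30 on the left and 0.975 on the right, and the ribosomal protein genes 1.18 and 0.938.

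The place of the highest point of the intervals differed between libraries. Serine 2-phosphorylated polymerase is known to build up toward the end of genes. In Parp14+/+ the highest point lay past the end of 27 of 43 genes with an interval on the gene, and within 1000 bases of the start of 5. In Parp14-/- + PJ34 it lay past the end of 17 of 41 genes and within 1000 bases of the start of 12 (29.3%), against 5 of 41 in Parp14+/+ + PJ34 and 5 of 40 in Parp14-/-. Among the 37 genes with an interval in all 4 libraries, 4, 5, 4 and 10 had it at the start, in the order Parp14+/+, Parp14+/+ + PJ34, Parp14-/-, Parp14-/- + PJ34. In the same order the ribosomal protein genes had 21.1%, 34.7%, 43.4% and 51.3% of highest points at the start and all lines 22.3%, 24.2%, 28.3% and 30.7%. The genes at the start in Parp14-/- + PJ34 and in no other library were Eif4a1, Eif4a2, Eif3s5, Eef1g, Eif2s3x and Eif4ebp2. Eif4a2 is an example. Its highest point was 7180, 6892 and 6684 bases from the start in the first 3 libraries, beyond the end of its gene of 6191 bases, and 28 bases from the start in Parp14-/- + PJ34. Eif4a1 had 6040, 6040, 6072 and 56 bases. In both genes the highest points of the first 3 libraries lie past the end, over Rfc4 for Eif4a2 and nearest to Cd68 for Eif4a1. For Eif4a2, points on Rfc4 are thus set against a point on Eif4a2 itself.

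**Figure D4:**
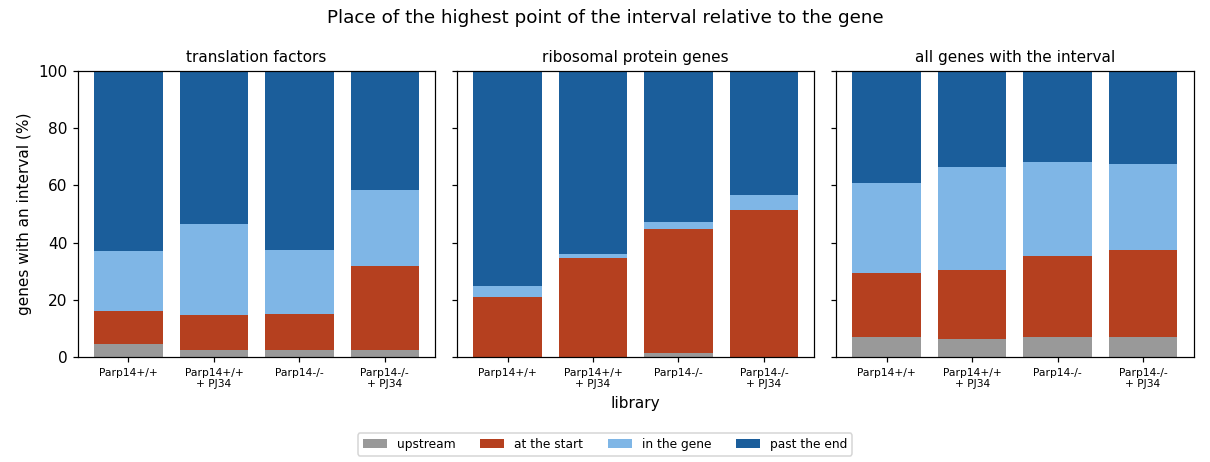
Share of genes (%) by place of the highest point of the interval, for each of the 4 libraries and for factor genes, ribosomal protein genes and all genes with the interval. The share at the start rises to 29.3% of the factors in Parp14-/- + PJ34 from 11.6% in Parp14+/+, and the share of ribosomal protein genes to 51.3% from 21.1%.

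The factor genes were covered over much of their length, a median of 95.8% in Parp14+/+, 77.4% in Parp14+/+ + PJ34, 69.6% in untreated Parp14-/- and 72.3% in Parp14-/- + PJ34. Over all lines the median was 21.6%, 14.4%, 7.11% and 5.26%, and the ribosomal protein genes, with a median length of 2.91 kb against 15.3 kb for the factors, were at 100% in each library. The covered length of the 46 genes summed to 707, 592, 536 and 492 kb in the same order. Covered length was greater in Parp14+/+ than in Parp14-/- for 23 of 44 genes and smaller for 9 (65.8% and 20.4% of all lines), and it was greater in Parp14+/+ than in Parp14+/+ + PJ34 for 24 of 44 and smaller for 7 (54.6% and 31.5% of all lines). The intervals of the whole libraries covered 98.1, 82.4, 73.8 and 65.5 Mb in the same order, and their part in the lengths of the factors was not tested.

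**Figure D5:**
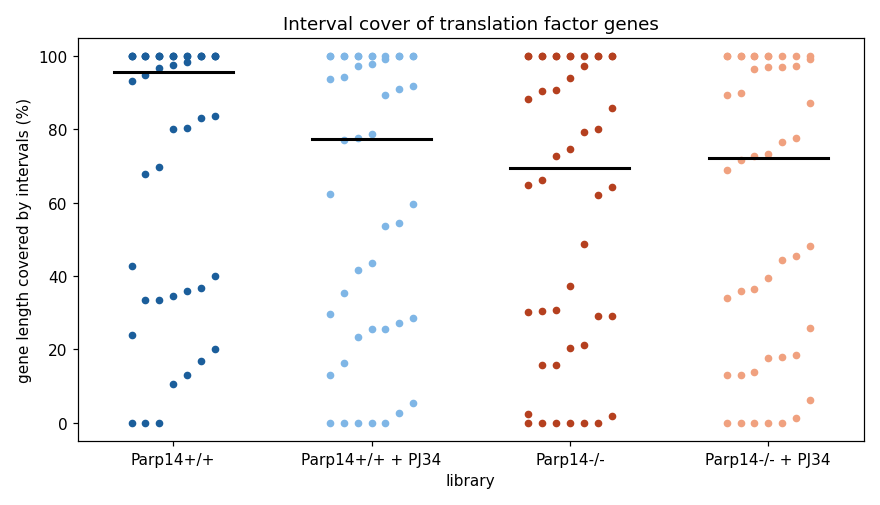
Share of the length of each factor gene under enriched intervals (%) in the 4 libraries, with 1 point per gene and a bar at the median. The median is 95.8% in Parp14+/+ and 69.6% in Parp14-/-, and each library holds some genes at 0% and some at 100%.

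Other genes of translation gave no common direction. Of 52 named genes that act in termination, mRNA binding, eIF2 kinase signalling and growth control, 38 met the interval rule. Their median ratio of untreated Parp14+/+ over Parp14-/- was 0.929, with 2 above 1.4 (13.2% of all lines) and 4 below 0.7 (9.05% of all lines). Atf4, the transcription factor whose translation rises when eIF2 is phosphorylated, had heights of 39, 49, 66 and 62 and a ratio of 0.591 (0.387 to 0.891). It was the single one of the 38 whose interval lay below 1 in that pair (1.95% of all lines). Both its Parp14-/- libraries were above both Parp14+/+ libraries. Pabpc1, the poly(A)-binding protein that contacts eIF4G, had heights of 27, 41, 44 and 45, with the untreated Parp14+/+ library the lowest and a ratio of 0.614 (0.365 to 1.01). Ddx3x, a helicase that assists initiation, had 32, 32, 48 and 29. Its Parp14-/- library stood above the others, with a ratio to Parp14-/- + PJ34 of 1.66 (1.02 to 2.72). This ratio was not scaled, in a pair with a median of 1.08 over all lines and 1.32% of all lines with an interval above 1. All 5 mitochondrial translation factors of 9 listed that met the rule, Gfm1, Gfm2, Mtif2, Mtrf1l and Tufm, had a ratio above 1 in the untreated genotype pair, with a median of 1.21, each interval including 1, against 51.1% of all lines above 1.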

How the data were processed

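Per the study's methods and file headers, the authors used ELAND for alignment to mm9, dropped duplicate reads, brought all libraries to an equal number of alignments and called intervals with SICER against an Input library. They deposited a signal per gene and library, the average peak height, with marks of whether an interval is present (1 or 0), and tracks of the intervals of each library with a score for the highest point. No depth per gene beyond these heights is used, and a height was treated as a count. The same table has 8 columns of per-sample values of other libraries, which were not used. The members and lists were chosen with earlier results of these data known.

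Ratios were taken between libraries of 4 pairs, with Clopper-Pearson 95% intervals (scipy 1.17.1), and called above 1.4 or below 0.7. No test between conditions was run, with 1 library per condition. The interval calculation was tested on simulated data. Values are given for the 5 genes with the highest mean, the 3 highest and 3 lowest ratios of each pair among genes with a summed height of at least 50, genes whose interval excludes 1, core factors and Parp14, 18 factors in all. Other genes, such as Eif1, Eif1a, Eef1b2, Eif2c2, Eif2c4 and the Eif4ebp genes, were named after their values were seen. Alternatives were other folds, scalings, filters and measures. RefSeq promoters (GRCm38.p6) served for sequence only.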

Additional observations from a re-analysis of the deposited data

Results flagged for a closer look

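Eif5b was singled out because its ratio of untreated over PJ34-treated height pointed in opposite directions in the 2 genotypes. It was 0.688 in Parp14+/+ and 1.5 in Parp14-/-, past the folds of 0.7 and 1.4 on either side. The difference was not tested, and with 1 library per condition it cannot be. Both counting intervals include 1, at 0.381 to 1.22 and 0.764 to 3.02. The highest points lay before the start of Eif5b in the Parp14+/+ libraries, over EG666434 and Txndc9 in Parp14+/+ + PJ34, and near its 3′ end in the Parp14-/- libraries. Ratios past the folds in opposite directions in this contrast were found for 2.46% of all lines, and for 1.90% in the genotype contrast.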

How the results depend on the processing

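The number of factors past either fold was 7 for Parp14+/+ over Parp14-/-, 8 for the same pair with PJ34, 8 for Parp14+/+ over Parp14+/+ + PJ34 and 5 for Parp14-/- over Parp14-/- + PJ34. In the same order of pairs, folds of 1.2 and 0.83 gave 23, 24, 17 and 19, a summed height of at least 50 left 0, 2, 1 and 0 of the 6 or 7 genes that passed it, and keeping only genes whose highest point lies at the gene, an alternative chosen after seeing the data, gave 3, 4, 5 and 3. Without values shared with a neighbouring line there were 4, 5 and 3 in the pairs other than that with PJ34 on both genotypes. Genes with an interval in all 4 libraries gave 5 in the PJ34 genotype pair and 3 in the Parp14-/- pair, and a pseudocount of 1 gave 4 in the former. Without names that are no translation factor there were 5 in the Parp14+/+ pair with PJ34 and 3 in the Parp14-/- pair. Length covered gave 13, 10, 12 and 10, and the highest interval gave 12 in the Parp14-/- pair. The shares of all lines were not computed under these alternatives, so the counts cannot be set against a background.

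The median ratio moved to 0.959 with scaled libraries and to 1 for covered length in the PJ34 genotype pair, to 1.16 in the untreated genotype pair and 1.17 in Parp14+/+ over Parp14+/+ + PJ34 with a summed height of at least 50, and to 1.09 by the highest interval in the last pair. The ratio of Eif2s3x with PJ34 turned from 1.41 to 0.75 when the highest interval over the gene was used. By the same measure Eif2b4 moved from 1.55 to 3.9 and from 1.18 to 2.56 in the Parp14+/+ and Parp14-/- pairs with PJ34, Eif3s3 from 1.14 to 1.73 in the former and Eif4g3 from 1.18 to 1.57 in the latter. For all of these the cause was not tested beyond the smaller number of genes in the filtered sets. The other 61 values stayed within 1.5 times of their count, or, for the medians and the share with CACGTG, within the counting interval. No paired analysis was possible because the labels give no replicate numbers and each condition has 1 library, so leaving out a replicate was not possible either. Low heights limit what can be seen: 7 of the 46 genes reach a summed height of 50.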
